A study of Mus musculus with 5 samples.

Results

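Messenger RNA of 10 feedback inhibitors of receptor tyrosine kinase and MAP kinase signalling was compared between leukaemia cells and normal myeloid cells of the mouse. The genes were taken by name from a table of 34240 features: the Sprouty genes Spry1, Spry2 and Spry4, the Spred genes Spred1 and Spred2, the dual-specificity phosphatase genes Dusp2, Dusp4, Dusp5 and Dusp6, and Phlda1. All 10 names were found. The leukaemia was an acute myeloid leukaemia (AML) driven by CNTRL-FGFR1, in which part of centriolin, found at centrosomes, is joined to the kinase FGFR1. Its cells, selected as Mac+Gr1+B220+, gave 2 libraries, each labelled as bone marrow and spleen. Normal myeloid cells sorted for Gr1 and Mac1 came from bone marrow and gave 3 libraries. All mice were BALB/c and 10 to 12 months old. The labels give neither how the fusion was introduced nor whether animals were pooled or libraries came from separate animals, and each p-value therefore reflects spread among these samples only, which may be technical. By the labels, spleen tissue and the B220 sort belonged to the AML group alone and cannot be told apart from the leukaemia. Values are RPKM, reads per kilobase of transcript scaled to sequencing depth, and no total count can be given for a library.

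Receptor tyrosine kinases activate RAS, which drives RAF, MEK and the MAP kinase ERK, and active ERK induces genes whose products damp the same cascade. Sprouty and Spred proteins act high in that cascade, between the receptor and RAF, while dual-specificity phosphatases remove the activating phosphates from the MAP kinases themselves. Transcripts of several of these inhibitors are widely used as a readout of ERK output.

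In the AML cells Spry1, Spry2 and Dusp2 were higher than in normal myeloid cells, and Dusp5 was lower. Spred1, Spred2, Dusp6 and Phlda1 did not pass the test, and Spry4 and Dusp4 were at or near 0 in every library. A gene entered the test when it reached 1 RPKM in at least 2 libraries, which 8 of the 10 genes did. Of these 8, 3 were called higher and 1 lower (limma on log2(RPKM + 1), Benjamini-Hochberg adjusted p under 0.05 over 10166 genes), against 19.3% of all tested genes called higher, 11.8% called lower and 31.0% called in either direction. The groups did not overlap for 5 of the 8 genes, 3 with AML above and 2 with AML below, while among all tested genes 57.0% did not overlap, 34.8% with AML above and 22.1% with AML below. With so wide a background, the number of called feedback genes is not in itself a result. The mouse Fgfr1 row stood at 0.15 and 0.16 RPKM in the AML libraries, against 0.02, 0.03 and 0.02 RPKM in the normal libraries, under the filter. With no filter this row passed (log2 difference 0.17, limma, Benjamini-Hochberg adjusted p = 0.0099), at these levels near 0. Whether reads of the fusion, which holds the kinase FGFR1, were counted in this row is not known. Spry1 and Dusp5 passed the filter only through the group in which each was high.

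**Figure D1:**
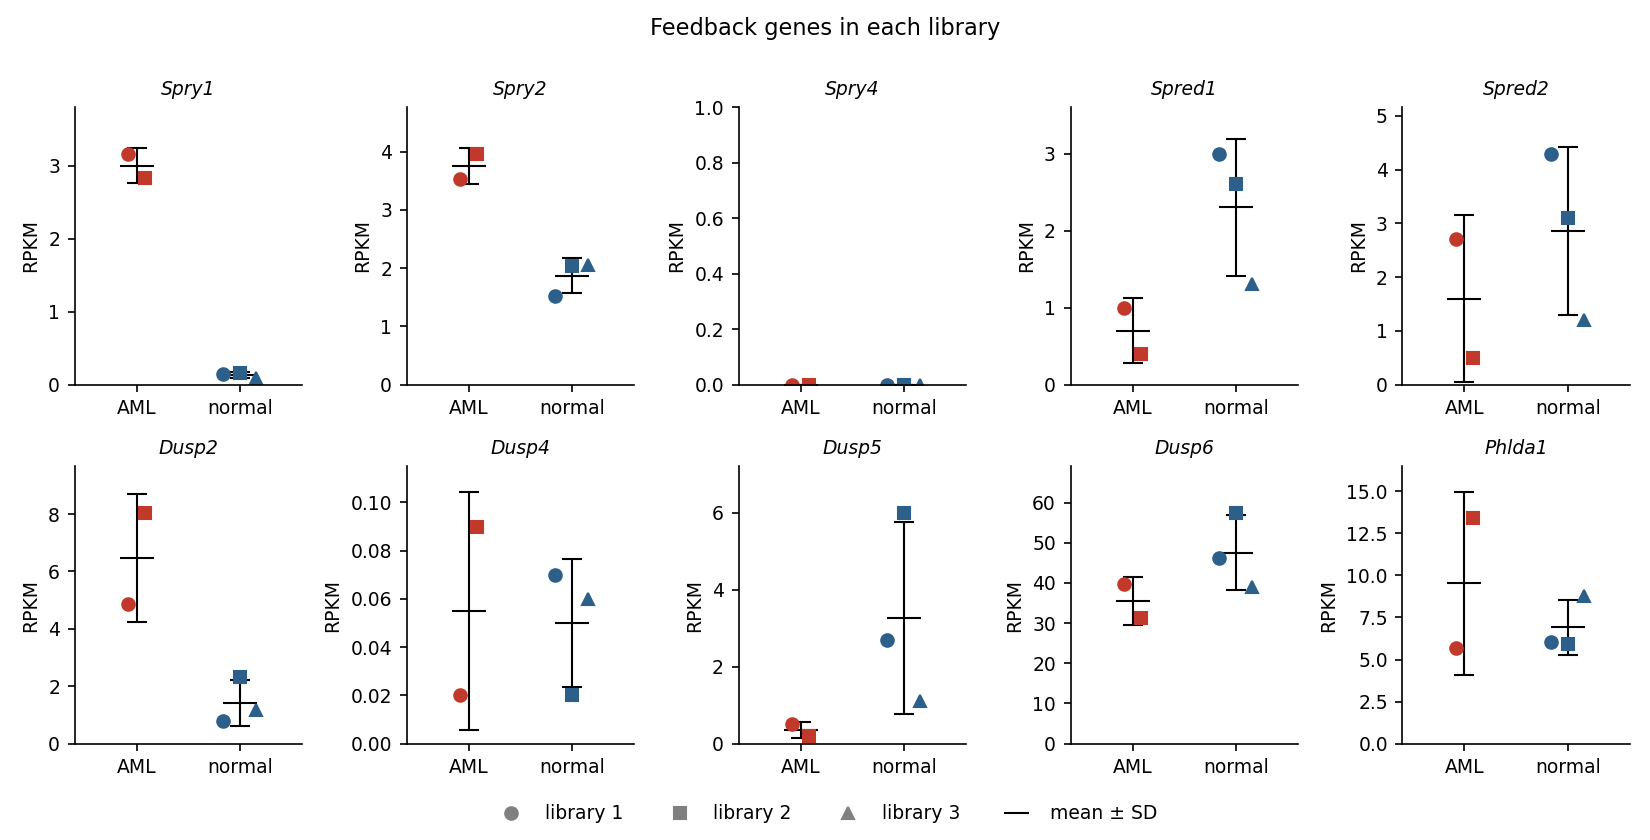
RPKM of the 10 feedback genes in each library (y axis, linear, a scale of its own per gene) for AML and normal cells (x axis), with the mean and SD as a black bar. Spry1, Spry2 and Dusp2 lay higher in both AML libraries than in all 3 normal libraries, Spred1 and Dusp5 lay lower, and Spry4 was listed at 0 throughout.

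Neutrophil markers were abundant in both groups, but the called markers of early and mature stages differed in opposite directions. The 10 neutrophil and precursor markers summed to 177857 and 246628 RPKM in the AML libraries and to 187871, 232549 and 296255 RPKM in the normal libraries, and none was at 0, but these sums are mostly S100a8, S100a9, Ngp and Camp. Of the 10 markers 2 were called higher, the granule protein genes of precursors Elane (62.2-fold) and Mpo (17.8-fold), and 4 were called lower, Ltf, Retnlg, Cxcr2 and Csf3r, with AML means of 0.384, 0.221, 0.126 and 0.400 times the normal means. Camp, S100a9, Ngp and S100a8, with AML means of 1.40, 0.888, 0.855 and 0.808 times the normal means, overlapped between the groups and were not called. The difference between the called precursor and mature markers ran between the same groups as every feedback gene result below. Its part in them was not tested. The 10 B lineage markers summed to between 11.4 and 14.0 RPKM in the AML libraries although B220 was part of their sort, and to between 14.0 and 22.3 RPKM in the normal libraries. Monocyte and macrophage markers were low in the AML libraries: the 10 genes summed to 45.6 and 48.1 RPKM in the AML libraries, against 977, 746 and 595 RPKM in normal libraries 1 to 3. Called lower were 9 of these 10, beside 11.8% of all tested genes. Klf4 and Irf8 among them were under 1 RPKM in both AML libraries. They entered the test only through the normal libraries, so their calls add no support to their levels. Normal library 3 also stood apart from the other normal libraries in erythroid markers (102 against 1534 and 976 RPKM) and in basophil, mast cell and eosinophil markers (13.7 against 639 and 651 RPKM). T and NK cell markers summed to 614 and 571 RPKM in the AML libraries and to between 57.5 and 64.6 RPKM in the normal libraries, but 3 of the 10 genes, Cd3e, Cd3g and Nkg7, made up nearly all of the AML sums. Cd3d was lower in AML cells (16.9 against 42.0 RPKM), and Cd2, Cd5, Lck, Cd247, Klrb1c and Ncr1 were under 1 RPKM in both AML libraries. Of the 8 stromal and endothelial markers 7 were at 0 in both AML libraries. In the normal libraries these 7 were at 0.3 RPKM or less, apart from Cxcl12 (2.0, 0.7 and 0.3 RPKM). In bulk samples a lower level can come from fewer cells of a type or from less RNA per cell, which cannot be told apart.

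Among the Sprouty genes Spry1 differed most between the groups. Sprouty proteins are membrane-associated inhibitors that bind adaptor proteins downstream of growth factor receptors. Spry1 (chromosome 3, 37538869 to 37543520, mm9) stood at 3.17 and 2.83 RPKM in the AML libraries, against 0.14, 0.16 and 0.09 RPKM in the normal libraries. Both AML values lay far above every normal value, and the AML libraries differed from each other by a factor of 1.12. The mean was 23.1-fold higher, at 3 ± 0.24 RPKM (SD, n = 2) in AML cells and 0.13 ± 0.036 RPKM (SD, n = 3) in normal cells. On the log2(RPKM + 1) scale, which understates the change of low genes, the difference was 1.82 (SE 0.17, limma, Benjamini-Hochberg adjusted p = 0.00069). Since Spry1 was under 1 RPKM in all 3 normal libraries and entered the test only through the AML libraries, that p-value adds no support to the levels themselves. With a pseudocount of 0.1 in place of 1 it was 3.76, more than 1.5 times as large. Rounding of the deposited values limits the ratio of means to between 22.2 and 24.04.

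Spry2 (chromosome 14, 106291166 to 106296036) was already detectable in normal cells and rose less. It stood at 3.54 and 3.97 RPKM in the AML libraries, against 1.52, 2.03 and 2.05 RPKM in the normal libraries, without overlap and with a ratio of means of 2.01. Its log2 difference was 0.73 (SE 0.20, limma, Benjamini-Hochberg adjusted p = 0.034). This call was lost without AML library 1 (adjusted p = 0.10), AML library 2 (0.19), normal library 1 (0.14) or normal library 2 (0.11), under quantile normalization (0.063) and with no filter on low values (0.052), while both AML libraries stayed above all normal libraries. For Spry1 the log2 difference lay between 1.76 and 1.88 whichever library was left out, among the genes kept over all 5 libraries.

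The 250 bases before the annotated start of Spry1 and Spry2 are shown because these genes moved in the same direction (RefSeq sequences, build GRCm38.p6, Spry1 at chr3:37639697-37639946 on the plus strand and Spry2 at chr14:105896820-105897069 on the minus strand, both written 5′ to 3′ along the gene). Capitals would mark a searched motif, and neither window holds any.
Spry1: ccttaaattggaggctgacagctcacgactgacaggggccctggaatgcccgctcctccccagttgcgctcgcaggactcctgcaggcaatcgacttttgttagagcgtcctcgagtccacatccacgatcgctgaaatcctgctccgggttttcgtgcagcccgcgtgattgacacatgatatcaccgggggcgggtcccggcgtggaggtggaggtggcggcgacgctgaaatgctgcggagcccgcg
Spry2: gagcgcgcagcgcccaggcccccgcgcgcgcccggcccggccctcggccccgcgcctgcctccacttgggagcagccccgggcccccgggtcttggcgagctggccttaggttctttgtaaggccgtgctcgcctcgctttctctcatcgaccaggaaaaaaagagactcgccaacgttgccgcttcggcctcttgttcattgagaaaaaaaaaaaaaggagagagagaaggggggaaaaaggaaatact
Searched on both strands were the ETS site CCGGAAGT (in 2.88% of 32851 promoter windows of this length), the EGR sites GCGGGGGCG (2.57%) and GCGTGGGCG (0.536%), the AP-1 site TGACTCA (4.46%), the cAMP response element TGACGTCA (1.55%) and its core TGACG (17.8%, which includes each full element), the E-box CACGTG (6.02%), the STAT site TTCNNNGAA (7.02%), the GC box GGGGCGGGG (10.4%) and the CArG box of serum response factor (1.47%). No match says only that these letters are not in these windows. Both windows had a GC content of 62.4%, above 77.5% of all windows.

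The balance between these Sprouty genes differed between the groups, which follows from their levels given above and is no further result. RPKM is scaled by length, so levels can be set side by side: Spry1 made up 47.2% and 41.6% of the sum of Spry1 and Spry2 in the AML libraries, against 8.43%, 7.31% and 4.21% in the normal libraries. The Sprouty sum was 6.71 and 6.80 RPKM in the AML libraries and 1.66, 2.19 and 2.14 RPKM in the normal libraries. Spry4 (chromosome 18, 38745922 to 38760922), a further ERK-inducible member of the family, was listed at 0.0 RPKM in all 5 libraries, in a row with 1 decimal, and Spry3 was listed at 0 in all 5 as well.

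Spred proteins share the C-terminal domain of the Sprouty family, and Spred1 is known to bring the RAS GTPase-activating protein neurofibromin to the membrane. Spred1 (chromosome 2, 116947110 to 117008015) stood at 1.0 and 0.4 RPKM in the AML libraries, against 3.0, 2.6 and 1.3 RPKM in the normal libraries. The groups did not overlap, but AML library 1 and normal library 3 lay close together. The normal mean was 3.29 times the AML mean, and the log2 difference of -0.94 (SE 0.30) lay just outside the threshold (limma, Benjamini-Hochberg adjusted p = 0.052). Spred1 was further from the threshold without AML library 2 (log2 difference -0.68, adjusted p = 0.31), AML library 1 (0.092), normal library 1 (0.12) or normal library 2 (0.14) and with no filter (0.10). It passed without normal library 3 (log2 difference -1.18, adjusted p = 0.0035), with upper quartile scaling (0.045), with quantile normalization (0.040) and with a pseudocount of 0.1 (log2 difference -1.61, adjusted p = 0.048).

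Spred2 (chromosome 11, 19824378 to 19924029), the closest relative of Spred1, stood at 2.7 and 0.5 RPKM in the AML libraries and at 4.3, 3.1 and 1.2 RPKM in the normal libraries. The groups overlapped, with a 5.4-fold gap between the AML libraries that exceeded the 1.79-fold difference between the means. Its log2 difference of -0.62 (SE 0.49, limma, Benjamini-Hochberg adjusted p = 0.36) turned to 0.03 without AML library 2. The Spred sum was 3.7 and 0.9 RPKM in the AML libraries, against 7.3, 5.7 and 2.5 RPKM in the normal libraries. Sprouty transcripts made up 64.5% and 88.3% of the Sprouty and Spred sum in the AML libraries, against 18.5%, 27.8% and 46.1% in the normal libraries. This separation follows from the Sprouty and Spred sums already given and is no further result. The order of the normal libraries in Spred1 and Spred2 is also that of their monocyte and macrophage markers given above (977, 746 and 595 RPKM). The erythroid markers had the same order (1534, 976 and 102 RPKM). In the AML libraries the monocyte and macrophage sum was 45.6 and 48.1 RPKM, with no marker at 0, and the erythroid sum 118 and 129 RPKM. An order of 3 libraries is easily matched, and the part of these markers in the result was not tested. Spred3, the remaining Spred gene, was between 0.21 and 0.28 RPKM in AML and between 0.04 and 0.13 RPKM in normal cells, under the filter.

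**Figure D2:**
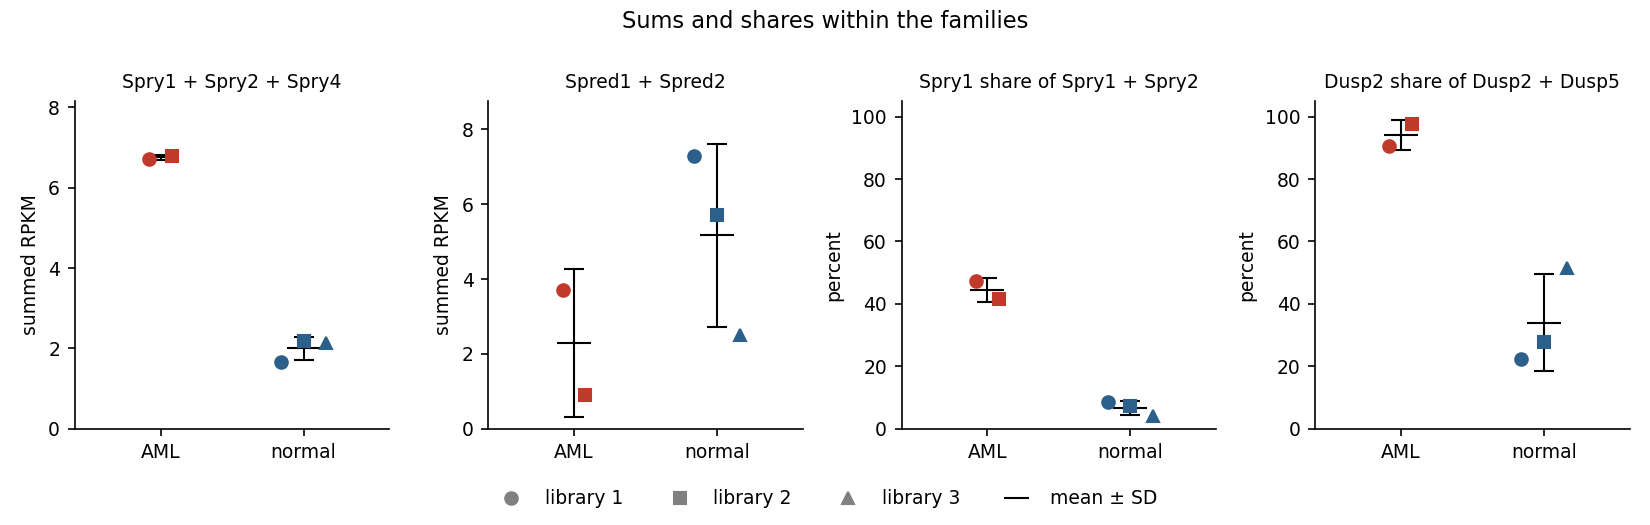
Summed RPKM of the Sprouty and of the Spred genes, and the percent of Spry1 in Spry1 plus Spry2 and of Dusp2 in Dusp2 plus Dusp5 (y axes, linear), by library for AML and normal cells (x axes), with mean and SD. The Sprouty sum lay at 6.71 and 6.80 RPKM in the AML libraries, and both shares were higher in the AML libraries than in any normal library, while the Spred sums overlapped. The separation of both shares follows from the levels of the genes in them and is no further result.

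The dual-specificity phosphatases split within their nuclear, inducible class. Dusp2, Dusp4 and Dusp5 encode nuclear phosphatases induced by mitogens, and DUSP5 is selective for ERK. Dusp2 (chromosome 2, 127161895 to 127164112), first described in activated lymphocytes, stood at 4.88 and 8.05 RPKM in the AML libraries, against 0.78, 2.32 and 1.17 RPKM in the normal libraries. The groups did not overlap, the ratio of means was 4.54, and the log2 difference was 1.64 (SE 0.33, limma, Benjamini-Hochberg adjusted p = 0.012). Its call was lost without AML library 2, where the log2 difference was 1.33 (limma, Benjamini-Hochberg adjusted p = 0.11). Of the 10 T and NK cell markers, Cd3e, Cd3g and Nkg7 were high in the same libraries as Dusp2, Cd3d was called lower, and the other 6 were under 1 RPKM in both AML libraries, as given above.

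Dusp5 (chromosome 19, 53603599 to 53616921) went the other way. It stood at 0.5 and 0.2 RPKM in the AML libraries, against 2.7, 6.0 and 1.1 RPKM in the normal libraries, without overlap but with a 5.45-fold range among the normal libraries. The normal mean was 9.33 times the AML mean, or between 8.04 and 11.1 times within the rounding of a row with 1 decimal. The log2 difference was -1.50 (SE 0.47) and lay just inside the threshold (limma, Benjamini-Hochberg adjusted p = 0.049), in a test that Dusp5 entered only through the normal libraries. The call was lost without AML library 1 (adjusted p = 0.13), AML library 2 (0.25), normal library 1 (0.086) or normal library 2 (0.074), with no filter (0.11), without the variance trend and robust estimation (0.053) and with values rounded to 1 decimal (0.052). Without normal library 3 it strengthened to a log2 difference of -1.92 (limma, Benjamini-Hochberg adjusted p = 0.0015), and with a pseudocount of 0.1 the difference was -2.69. Normal library 3 had the lowest Dusp5 of its group and the lowest monocyte and macrophage and erythroid marker sums. It was also lowest in the basophil, mast cell and eosinophil sum (639, 651 and 13.7 RPKM in normal libraries 1 to 3). That sum was 113 and 233 RPKM in the AML libraries. Normal library 2 was highest in Dusp5 and in that sum, and normal library 1 in the others. The part of these cell types in Dusp5 was not tested. The share of Dusp2 in the sum of Dusp2 and Dusp5 was 90.7% and 97.6% in the AML libraries, against 22.4%, 27.9% and 51.5% in the normal libraries. Since neither gene overlapped between the groups and they moved in opposite directions, this share had to separate the groups. It adds no support to the levels themselves. Dusp4 (chromosome 8, 35870351 to 35882948) lay between 0.02 and 0.09 RPKM in AML and between 0.02 and 0.07 RPKM in normal cells, under the filter and with overlapping groups.

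The upstream windows of Dusp2 and Dusp5 are shown because these related phosphatases moved in opposite directions (RefSeq, GRCm38.p6, Dusp2 at chr2:127335909-127336158 and Dusp5 at chr19:53528895-53529144, both on the plus strand). Capitals mark the motifs found.
Dusp2: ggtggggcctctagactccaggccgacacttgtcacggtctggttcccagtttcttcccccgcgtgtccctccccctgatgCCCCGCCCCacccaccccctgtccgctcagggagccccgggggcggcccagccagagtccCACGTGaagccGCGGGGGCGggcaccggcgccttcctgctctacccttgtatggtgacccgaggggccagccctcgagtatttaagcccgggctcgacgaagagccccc
Dusp5: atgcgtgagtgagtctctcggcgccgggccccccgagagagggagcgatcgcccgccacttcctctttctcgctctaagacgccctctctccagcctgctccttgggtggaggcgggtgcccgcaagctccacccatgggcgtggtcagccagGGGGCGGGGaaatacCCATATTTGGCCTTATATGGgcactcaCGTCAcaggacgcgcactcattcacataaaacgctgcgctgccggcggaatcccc
In Dusp2 these are, from left to right, a GC box on the minus strand, the E-box CACGTG and the EGR site GCGGGGGCG, which start 169, 109 and 98 bases before the gene's start. In Dusp5 they are a GC box, a pair of CArG boxes that lie end to end and a cAMP response core TGACG on the minus strand, which start 97, 82, 72 and 55 bases before the start. The CArG box was added to the search after the letters of the Dusp5 window had been read, so its presence there was fixed in advance. It was found in no other window among the 7 feedback genes with a promoter in the table (all but Spry4, Dusp4 and Phlda1). Only 1.47% of all windows hold it, so its absence from the others is not in itself a result. A match is a description of the letters, not a site shown to be bound. Of the remaining windows, only that of Spred2 held a motif, a cAMP response core TGACG on the minus strand, and those of Spred1 and Dusp6 held none of those searched.

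Dusp6, the cytoplasmic phosphatase selective for ERK and a standard marker of ERK output, was by far the most abundant of the 10 transcripts. Dusp6 (chromosome 10, 98725865 to 98730122) stood at 39.7 and 31.3 RPKM in the AML libraries, against 46.1, 57.5 and 38.9 RPKM in the normal libraries. The groups overlapped narrowly, since AML library 1 lay just above normal library 3. The means were 35.5 ± 5.94 RPKM (SD, n = 2) in AML cells and 47.5 ± 9.38 RPKM (SD, n = 3) in normal cells, and the log2 difference of -0.40 (SE 0.26) did not pass (limma, Benjamini-Hochberg adjusted p = 0.28). Left out in turn, no library brought it past the threshold (log2 difference between -0.57 and -0.24, adjusted p from 0.11 to 0.69). Dusp6 made up 64.9% and 51.5% of the sum of all 10 genes in the AML libraries, against 71.3%, 72.2% and 71.2% in the normal libraries. That sum was 61.2 and 60.7 RPKM in the AML libraries and 64.6, 79.6 and 54.7 RPKM in the normal libraries. Without Dusp6 the other 9 genes summed to 21.5 and 29.4 RPKM in the AML libraries and to 18.5, 22.1 and 15.8 RPKM in the normal libraries, so the groups overlapped in both sums.

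Phlda1 encodes a protein with a pleckstrin homology-like domain and belongs to common transcript signatures of MAP kinase activity. On chromosome 10 (110943342 to 110945705), it stood at 5.67 and 13.4 RPKM in the AML libraries and at 6.03, 5.91 and 8.80 RPKM in the normal libraries. AML library 1 was the lowest and AML library 2 the highest of all 5, and the log2 difference of 0.33 (SE 0.37, limma, Benjamini-Hochberg adjusted p = 0.52) turned to -0.23 without AML library 2. Among its relatives, Phlda3 was at 0.46 and 0.26 RPKM in the AML libraries against 0, 0.08 and 0 RPKM in the normal libraries, all under the filter, and Phlda2 was at 0 and 0.1 RPKM in AML and 0 in all normal libraries. With no filter Phlda3 passed (log2 difference 0.40, limma, Benjamini-Hochberg adjusted p = 0.028).

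**Figure D3:**
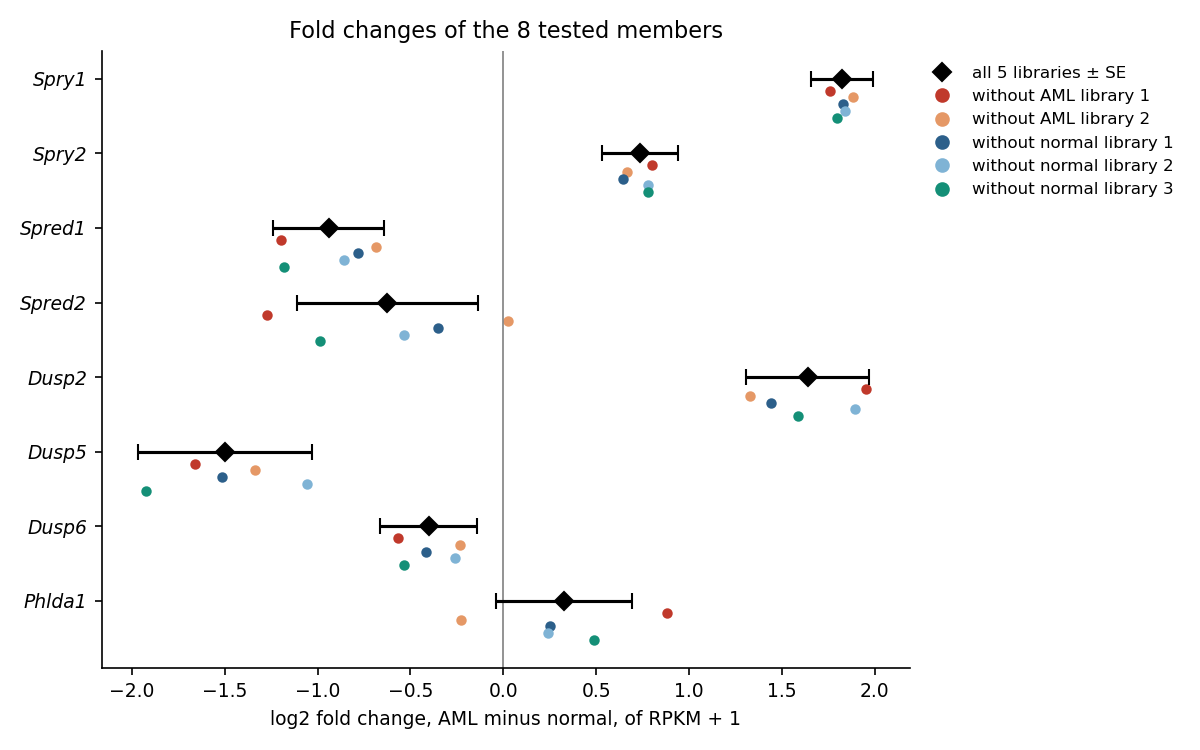
Log2 fold changes of RPKM + 1 between AML and normal cells (x axis) for the 8 tested feedback genes (y axis), as diamonds with SE from all 5 libraries and as dots with each library left out, for the genes kept over all 5 libraries. Spry1 moved least, between 1.76 and 1.88, while Spred2 and Phlda1 crossed 0 without AML library 2.

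Dusp6 had the highest mean level in both groups and Phlda1 the next, while the order of the lower genes depended on the group: Spry1 averaged 3 RPKM and Dusp5 0.35 RPKM in AML cells, against 0.13 RPKM for Spry1 and 3.27 RPKM for Dusp5 in normal cells. By mean over the 5 libraries of both groups Dusp6 stood above 91.9% of features listed above 0 in any library, Phlda1 above 67.4%, Dusp2 above 55.4% and Spry2 above 52.2%. Spred2 (51.0%), Dusp5 (49.9%), Spred1 (48.0%) and Spry1 (45.6%) lay close together on this pooled mean, and their ranges across libraries overlapped. Among the detected genes Spry1 and Spry2 varied least between the AML libraries, with coefficients of variation of 8.01% and 8.10%, while those of Spred1, Spred2, Dusp5 and Phlda1 lay between 57.2% and 97.2%.

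Number of decimals in the deposited rows ran parallel to direction. Spry1, Spry2, Dusp2, Dusp4 and Phlda1 were given with 2 decimals, and Spred1, Spred2, Dusp5 and Dusp6 with 1. Across all tested genes 94.5% of those with 2 decimals, but 11.9% of those with 1 decimal, had a log2 difference above 0, so low values of genes that fell are coarser.

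Other genes of the pathway moved in both directions around these inhibitors, and their counts are to be read beside the 31.0% of all tested genes called, 19.3% higher and 11.8% lower. Of the called genes in these lists, Met, Gab1, Egr1, Fosb, Dusp16, Dusp22, Dusp3, Errfi1 and Map2k6 were under 1 RPKM in both AML libraries. Dusp23 was under 1 RPKM in all normal libraries. Each of these genes entered the test only through the group in which it was high. Their p-values, like those of Spry1 and Dusp5, add no support to their levels, and the counts and medians of the lists include such genes. Of 7 tested receptor tyrosine kinase genes (of 20 listed) 2 were higher and 2 lower (57.1% called), with a median log2 difference of -0.35 beside 0.12 for all tested genes. Flt3, a receptor of early progenitors, stood at 187 and 176 RPKM in the AML libraries, against 1.81, 1.56 and 2.09 RPKM in the normal libraries. Kit, the stem cell factor receptor, was 7.69-fold higher, and Csf1r, the receptor of macrophage colony-stimulating factor, fell to 4.1 and 5.1 RPKM in the AML libraries, against 73.5, 51.3 and 30.6 RPKM in the normal libraries. Their log2 differences were 6.02 (SE 0.21) for Flt3, 2.61 (SE 0.50) for Kit and -3.16 (SE 0.37) for Csf1r, with adjusted p of 9.2e-05, 0.0096 and 0.0017 (limma, Benjamini-Hochberg). Without AML library 1 Kit was no longer called (adjusted p = 0.072), leaving 1 of these genes higher, and without either AML library 1 gene was called lower.

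Among 22 tested genes of the ERK cascade, from adaptors to ERK itself, none was called higher and 5 were called lower, with a median of -0.37. The 22.7% called, all lower, stand beside 11.8% of all tested genes called lower and 31.0% called in either direction. Mapk3, which encodes ERK1 and did not pass, stood at 229 and 190 RPKM in the AML libraries and at 204, 205 and 231 RPKM in the normal libraries, with overlapping groups. Nras, which encodes a RAS protein, fell to 13 and 10.4 RPKM in the AML libraries, against 25.8, 28.8 and 26.8 RPKM in the normal libraries. Rasgrp4, a RAS exchange factor of myeloid cells, was lower with a log2 difference of -1.32 (SE 0.34), beside -1.15 (SE 0.22) for Nras. Adjusted p-values were 0.026 for Rasgrp4 and 0.0092 for Nras (limma, Benjamini-Hochberg). Leaving out AML library 2 ended the call of Nras (adjusted p = 0.087), as did leaving out normal library 2 (0.051), and that of Rasgrp4 ended without AML library 1, AML library 2 or normal library 2 (0.13, 0.10 and 0.053) or with no filter (0.059). The number called lower was 3 without AML library 1 or with no filter, and 0 without AML library 2, where the median was 0.01. It was 1 when normal library 2 was left out and 8 when normal library 3 was.

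Of 10 tested ERK output genes 1 was higher and 4 were lower (50.0% called), with a median of -1.31. Myc, a growth-promoting transcription factor, stood at 36.8 and 29.3 RPKM in the AML libraries, against 2.48, 2.98 and 3.56 RPKM in the normal libraries. Egr1, an immediate early transcription factor, fell to 0.53 and 0.78 RPKM in the AML libraries, against 4.48, 12.3 and 38.1 RPKM in the normal libraries. Fosl2, a subunit of the factor AP-1, fell to 7.2 and 6.7 RPKM in the AML libraries, against 42.7, 49.1 and 36.9 RPKM in the normal libraries. The log2 differences were 3.09 (SE 0.24) for Myc, -3.10 (SE 0.73) for Egr1 and -2.46 (SE 0.23) for Fosl2, with adjusted p of 0.00039, 0.019 and 0.00069 (limma, Benjamini-Hochberg). Egr1 was not called without either AML library (adjusted p = 0.10 and 0.12) or with no filter (0.056). Without normal library 3 the list's median was -0.54, with no filter it was -0.30, and the number called lower was 1 without either AML library and 2 without normal library 2.

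Dusp1, an immediate early phosphatase of all classes of MAP kinase, followed a different order across normal libraries from that of Dusp5: it stood at 31.0 and 41.9 RPKM in the AML libraries, against 59.0, 117 and 233 RPKM in normal libraries 1 to 3. Its log2 difference of -1.68 (SE 0.54) missed the threshold (limma, Benjamini-Hochberg adjusted p = 0.053). Of the 3 tested genes in the list of remaining Sprouty, Spred, Phlda and MAP kinase phosphatase genes, Dusp16, whose product acts on p38 and JNK, was called lower (log2 difference -0.79, SE 0.18, limma, Benjamini-Hochberg adjusted p = 0.017). Without either AML library or normal library 2 none of these genes was called (Dusp16 at an adjusted p of 0.098, 0.16 and 0.057), without normal library 3 all 3 were, and 2 were without normal library 1 or with upper quartile or quantile scaling. Among 6 tested atypical dual-specificity phosphatases, Dusp23 and Dusp28 were higher and Dusp22 and Dusp3 lower (66.7% called). Dusp22 fell to 0.4 and 0.3 RPKM in the AML libraries, against 6.1, 5.4 and 3.1 RPKM in the normal libraries (log2 difference -2.08, SE 0.28, limma, Benjamini-Hochberg adjusted p = 0.0027). Dusp3 had a log2 difference of -1.73 (SE 0.38) and Dusp23 of 1.14 (SE 0.22), with adjusted p of 0.016 and 0.010 (limma, Benjamini-Hochberg), and the call of Dusp3 was lost without AML library 1 or AML library 2 (0.074 and 0.13). Without either AML library no gene of this list was called higher, Dusp23 then being under the filter, and 1 was called lower. Without normal library 1 or 2, 1 was called higher, and with a filter at 5 RPKM none was higher and 1 lower.

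Of 18 tested further inhibitors of receptor tyrosine kinase and RAS signalling 2 were higher and 6 lower (44.4% called), with a median of -0.28. Errfi1, a feedback inhibitor of the EGF receptor, was listed at 0 in both AML libraries, against 1.5, 2.5 and 1.0 RPKM in the normal libraries. Pea15a, which holds ERK in the cytoplasm, fell to 1.1 and 1.2 RPKM in the AML libraries, against 6.5, 6.3 and 4.9 RPKM in the normal libraries. Rasal3, a RAS GTPase-activating protein of blood cells, rose to 43.9 and 58.5 RPKM in the AML libraries, against 14.0, 12.0 and 19.7 RPKM in the normal libraries. Log2 differences were 1.70 (SE 0.28) for Rasal3, -1.67 (SE 0.21) for Pea15a and -1.38 (SE 0.26) for Errfi1, with adjusted p of 0.0061, 0.0022 and 0.0090 (limma, Benjamini-Hochberg). Rasal3 was no longer called once AML library 2 was left out (adjusted p = 0.069), nor was Errfi1 without AML library 1 or 2 (0.069 and 0.089). Leaving out AML library 1, AML library 2, normal library 1 or normal library 2 left 1, 2, 3 or 2 of these genes called lower and 1 called higher in each case, and without normal library 3 there were 5 higher. With a filter at 5 RPKM 3 were lower, and with no filter 4 were lower and 1 higher. Dok1, an adaptor that recruits RAS GTPase-activating proteins, was the other gene called higher. With upper quartile or quantile scaling 1 gene was called higher. In the p38 and JNK modules 1 of 8 tested genes (12.5%) was called, Map2k6, an activator of p38, which fell (log2 difference -1.47, SE 0.37, limma, Benjamini-Hochberg adjusted p = 0.024) and lost its call when any library but normal library 3 was left out (adjusted p from 0.054 to 0.17) or with no filter (0.060).

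The genes whose pattern over the 5 libraries was most like that of each called member were found by Euclidean distance of centred log2(RPKM + 1) among 10165 other tested genes. Nearest to Spry1 were Oosp1 (distance 0.072), at 2.75 and 2.32 RPKM in the AML libraries and 0, 0.06 and 0 RPKM in the normal libraries, and 2210020M01Rik (0.093). Nearest to Spry2 were Fance (0.043) and 5730455O13Rik (0.068), and nearest to Dusp2 were LOC100044509 (0.36) and 3010026O09Rik (0.38). Nearest to Dusp5 were Gpr141 (0.56), at 15.7 and 12.9 RPKM in the AML libraries and 45.4, 53.2 and 18.7 RPKM in the normal libraries, and Sept10 (0.57), at 0.7 and 0.4 RPKM in the AML libraries and 4.5, 5.0 and 1.6 RPKM in the normal libraries. The distance was not scaled by the spread of a gene, so its size does not compare the members with each other. Gpr141 itself was not called (limma, Benjamini-Hochberg adjusted p = 0.068).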

How the data were processed

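Total RNA of sorted cells was sequenced from TruSeq RNA libraries, per the labels' protocols. The unit of the table deposited by the authors is stated nowhere and was inferred to be RPKM: its columns total 472234 to 638584, but multiplying each value by its exon length (kb) brings the totals to 1058675 to 1124040. The genome build was mm9, as named in the submitters' processing notes. The aligner, the counting tool and the strand setting are named in no label or header. No exon of the 10 genes overlapped another annotated gene. The 10166 genes that reached 1 RPKM in 2 or more libraries were compared on log2(RPKM + 1) with limma 3.58.1 in R 4.3.3 (variance trend, robust, two-sided) after a test on simulated data. The simulation gave all genes the same spread and changed only genes of higher level than the called feedback genes. It therefore does not show how well changes at their level are found. Lists were matched through RefSeq synonyms where names differed. The text names all 10 genes, the 3 called genes with the largest change per list, and the 2 tested genes most like each called member. A result that this rule names for the ERK cascade list is not reported here. Fgfr1, Met, Gab1, Fosb, Mapk3, Dusp1, Dusp28, Dok1, Spred3, Spry3, Phlda2, Phlda3 and the named cell type markers were named after their values were seen. Members and lists were chosen with earlier results of these data known. Gene coordinates are those of GENCODE M1 on NCBIM37 (mm9). Precision is limited by the number of libraries, and as no read depth is given, the part of sequencing depth in it is not known. Alternatives covered scaling, pseudocount, filter, variance model, rounding and leaving out each library.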

Additional observations from a re-analysis of the deposited data

How the results depend on the processing

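Of the called feedback genes, Spry1, which entered the test only through the AML libraries, kept its call in every fit that tested it, and Dusp2 in every fit that tested it but the one without AML library 2. Under the other settings the number of feedback genes called higher stayed between 2 and 3, except with a filter at 5 RPKM, where it was 0 since only Dusp6 and Phlda1 were tested. The number called lower, 1 in the main comparison, was 2 with upper quartile scaling, 2 with quantile normalization and 2 with a pseudocount of 0.1, where Spred1 passed. It was 0 with no filter, 0 with the filter at 5 RPKM, 0 without the variance trend and robust estimation, and 0 with values rounded to 1 decimal. Leaving out each library in turn gave 0 to 3 feedback genes higher and 0 to 2 lower, and across all genes 326 to 2757 higher and 348 to 2142 lower. Spry1 falls under the filter without either AML library, so these fits were repeated, as a choice made after seeing the data, on the genes kept over all 5 libraries, which gave 1 to 3 feedback genes higher and 0 to 2 lower. Over all genes these fits called 1015 higher and 664 lower with AML library 1 left out, and 653 and 432 with AML library 2 left out. They called 1087 and 767 with normal library 1 left out, 859 and 588 with normal library 2 left out, and 2761 and 2159 with normal library 3 left out. With a library left out the log2 difference of Spred2 ran from -1.27 to 0.028 and that of Phlda1 from -0.23 to 0.88, and both turned their sign without AML library 2 in both sets of fits. Where an AML library is left out, the lone AML library is assumed to vary like the normal ones. The cause of these changes was not tested. No paired analysis was possible because the labels pair no AML library with a normal one. Depth is unknown, and values of 0.5 RPKM or less in rows with 1 decimal are known only to within 0.05 RPKM.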
